A study of Saccharomyces cerevisiae with 12 samples.

Results

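Allantoin and urea are nitrogen sources that baker's yeast turns to when better ones run out, and 9 genes for their use and for nitrogen uptake are described here. They are DAL1, DAL2, DAL3, DAL4, DAL5, DAL7, DAL80, DUR3 and GAP1, taken by name from the 6645 genes of the deposited expression table, and all 9 were found in it. The table comes from haploid wild type BY4741 cells of Saccharomyces cerevisiae, in which all groups carried the plasmid-borne probe Grx1-roGFP2, a green fluorescent protein fused to glutaredoxin that reports the glutathione redox state of the cytosol. Cultures were grown under chronological aging conditions in a casein amino acid medium that held glucose, ammonium sulfate and casamino acids, for 48 or 72 hr. Living cells were then sorted by the ratio of the fluorescence excited at 405 and 488 nm into an oxidized subpopulation (high ratio) and a reduced one (low ratio) of the same culture age. That gave 4 groups of 3 libraries, named oxidized or reduced at 48 or 72 hr, without an unsorted group. The study describes the samples of a group as biological replicates, and the labels only number them. The p-values below rest on the spread between libraries of a group, pooled over the 4 groups and drawn toward that of genes of similar level.

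In yeast, genes for poor nitrogen sources are held low while ammonium, glutamine or asparagine is plentiful, which is called nitrogen catabolite repression. Their promoters carry GATAA motifs that are read by the GATA activators Gln3 and Gat1 and by the GATA repressors Dal80 and Gzf3, and Ure2 keeps Gln3 in the cytoplasm in rich nitrogen. Allantoin enters through Dal4 and is opened to allantoate by allantoinase, Dal1. Allantoicase, Dal2, splits allantoate into urea and ureidoglycolate, and ureidoglycolate lyase, Dal3, splits the latter into urea and glyoxylate, which the malate synthase Dal7 can join to acetyl-CoA. Urea, made inside the cell or taken up by Dur3, is broken down to ammonium and carbon dioxide by urea amidolyase, the product of DUR1,2.

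Libraries were made from the 3′ ends of transcripts, and the values are PPM, parts per 1e6, the reads of a gene out of all reads of its library scaled to that number, after duplicates were removed. The libraries were shallow, with 90403 to 189735 reads for oxidized cells at 48 hr, 119178 to 241084 for reduced cells at 48 hr, 138631 to 169638 for oxidized cells at 72 hr and 141471 to 201379 for reduced cells at 72 hr. A single read is therefore worth 4.15 to 11.1 PPM. Differences were fitted with limma on log2(PPM + 10) over the 4776 genes whose mean reached 20 PPM, and a gene was called when its Benjamini-Hochberg adjusted p was below 0.05. The fit understates the change of genes near 0 because of the added 10 PPM. Transcripts of all 6 genes marking cells of mating type a were present, summing to 1054 to 1565 PPM in oxidized and 1197 to 1544 PPM in reduced libraries, while the 4 genes marking mating type alpha, the type given in the study's strain description, summed to 73.8 to 199 PPM and 35.3 to 94.3 PPM. The 6 sporulation genes, which respond to starvation, were all detected and summed to 66.4 to 123 PPM in oxidized and 166 to 288 PPM in reduced libraries. Most of these reads were of the inducer IME1, itself among the 6, with 186 reads, and of DIT1, with 72. The other sporulation genes had 6 to 16 reads each. Of the 2 that passed the filter, only IME1 was called, lower in oxidized cells (averaged over both ages, log2 difference −0.94, limma adjusted p = 0.0048). The part of these differences in the results below was not tested.

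The upstream regions are shown because the GATAA motif is the feature that these genes are known to share. The windows run from 400 to 101 bases before the coding start, were read from the RefSeq sequence of the R64 assembly, which is the sacCer3 build used for the reads, and are printed 5′ to 3′ on the gene's strand. Capitals mark GATAA on either strand, which reads TTATC where it lies on the opposite one. The 4 genes shown are the members called between oxidized and reduced cells in at least 1 comparison (DAL3, GAP1 and DUR3) and a member that was called in none (DAL2).
DAL3, chrIX:415718-416017, minus strand: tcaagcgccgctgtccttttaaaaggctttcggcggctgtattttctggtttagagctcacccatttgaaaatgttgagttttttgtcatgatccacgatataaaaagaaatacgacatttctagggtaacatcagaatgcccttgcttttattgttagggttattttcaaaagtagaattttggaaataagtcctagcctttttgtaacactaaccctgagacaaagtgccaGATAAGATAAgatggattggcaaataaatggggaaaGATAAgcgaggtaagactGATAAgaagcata
GAP1, chrXI:514663-514962, plus strand: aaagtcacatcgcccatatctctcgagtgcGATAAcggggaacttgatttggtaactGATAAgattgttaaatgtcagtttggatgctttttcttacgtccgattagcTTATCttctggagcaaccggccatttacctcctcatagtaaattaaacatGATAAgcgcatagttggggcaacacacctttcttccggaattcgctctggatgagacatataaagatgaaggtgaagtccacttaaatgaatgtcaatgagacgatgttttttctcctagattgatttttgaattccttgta
DUR3, chrVIII:74345-74644, minus strand: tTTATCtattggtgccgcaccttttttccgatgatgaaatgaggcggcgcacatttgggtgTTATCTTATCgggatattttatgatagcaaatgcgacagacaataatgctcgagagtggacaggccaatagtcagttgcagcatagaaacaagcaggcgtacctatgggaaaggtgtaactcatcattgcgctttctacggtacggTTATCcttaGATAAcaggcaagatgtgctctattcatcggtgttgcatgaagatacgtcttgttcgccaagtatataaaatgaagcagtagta
DAL2, chrIX:410407-410706, plus strand: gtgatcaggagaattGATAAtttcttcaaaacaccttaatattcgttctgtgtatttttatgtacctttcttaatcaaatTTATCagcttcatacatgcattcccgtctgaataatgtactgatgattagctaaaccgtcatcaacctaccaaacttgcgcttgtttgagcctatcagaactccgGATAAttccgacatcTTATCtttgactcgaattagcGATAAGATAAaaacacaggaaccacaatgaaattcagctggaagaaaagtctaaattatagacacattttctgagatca
DAL3 held 4 matches, of which a pair forms the tandem GATAAGATAA at 167 and 162 bases before the start. GAP1 held 4, DUR3 held 5 with a tandem on the opposite strand, and DAL2 held 6, among them the same tandem as DAL3, at 179 and 174 bases before the start. Among the members not printed, DAL1 and DAL80 held 4, DAL7 held 5, DAL5 held 6 and DAL4 held 2. So 8 of the 9 members held at least 4 matches, against 2.38% of 6001 windows of the same length and position in the genome, where the median was 1. Outside the members, GAT1 held 6, MEP2 held 4 and DUR1,2 held 1. No relation between the number of matches and the redox difference was tested. A match describes the letters only, not a bound site.

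GAP1 and DAL3 had lower levels in the oxidized cells at both ages, DUR3 was called lower at 72 hr and in the average of both ages, and DAL2 and DAL80 passed the test in no comparison. At 48 hr 2 of the 5 members that passed the filter on low values were called lower (GAP1 and DAL3), where 2.43% of all genes tested were called lower and 3.85% in either direction. At 72 hr 3 were called lower (GAP1, DAL3 and DUR3), against 4.75% of all genes lower and 9.61% in either direction. Averaged over both ages the same 3 were called, against 6.97% lower and 11.9% in either direction. That is 234 genes higher and 333 lower in oxidized cells, which became 277 and 252 with median-of-ratios scaling, where the members' counts stayed at 2, 3 and 3. DAL1, DAL4, DAL5 and DAL7 had too few reads for the fit. DUR3 reached the filter only through its reduced libraries, with a mean of 17.9 PPM over the oxidized and 50.9 PPM over the reduced ones. The same held for DAL80, with means of 19.7 PPM and 28.1 PPM. The places of DUR3 and DAL80 among the members tested thus depended on the group where they were higher. The sort was of whole cells, so fewer cells with a transcript and less of the transcript in each cell cannot be told apart.

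GAP1, at chrXI:515063-516871 on the plus strand, encodes the general amino acid permease, which brings most amino acids into cells short of good nitrogen. In oxidized cells at 48 hr its level was 77.4, 74.6 and 94.9 PPM in replicates 1 to 3, and in reduced cells of that age 411, 176 and 323 PPM. At 72 hr it was 167, 108 and 112 PPM in oxidized and 447, 481 and 434 PPM in reduced cells. Every oxidized library lay below every reduced library, across ages as well as within them. The group means were 82.3 ± 11.0 PPM (SD, n = 3) in oxidized cells at 48 hr, 129 ± 33.2 in oxidized cells at 72 hr, 303 ± 118 in reduced cells at 48 hr and 454 ± 24.1 in reduced cells at 72 hr. Neighbours of the same redox state in that rising order did not pass the test of their age difference. The log2 difference, oxidized minus reduced, was −1.69 ± 0.26 (SE) at 48 hr (limma, adjusted p = 7.0e-06) and −1.76 ± 0.26 at 72 hr (limma, adjusted p = 1.1e-06). In the reads themselves, the reduced libraries held 163 reads of GAP1 to 33 in oxidized ones at 48 hr, a ratio per read sequenced of 3.88 with an exact 95% interval of 2.66 to 5.82, and 235 to 58 at 72 hr, a ratio of 3.52 (2.63 to 4.77). Intervals of this kind cover counting error only. In the averaged redox difference, −1.73 ± 0.19 (limma, adjusted p = 1.5e-10), GAP1 had rank 8 from the lowest of 4776 genes.

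DAL3, at chrIX:415030-415617 on the minus strand, encodes ureidoglycolate lyase, the last enzyme of the path from allantoin to urea. Its level in oxidized cells at 48 hr was 177, 140 and 42.2 PPM, and in reduced cells 373, 201 and 226 PPM. At 72 hr the oxidized libraries held 90.7, 86.6 and 100 PPM and the reduced ones 497, 459 and 282 PPM. The oxidized and reduced libraries did not overlap, although replicates 1 and 2 of the oxidized cells at 48 hr came close to the lowest reduced library. Means rose from 92.5 ± 7.00 PPM (SD, n = 3) in oxidized cells at 72 hr through 120 ± 69.6 in oxidized cells at 48 hr and 267 ± 93.1 in reduced cells at 48 hr to 413 ± 115 in reduced cells at 72 hr. The outer neighbours in that order, the same redox state at different ages, did not pass the test of their difference. DAL3 was lower in oxidized cells by a log2 difference of −1.24 ± 0.31 at 48 hr (limma, adjusted p = 0.0099) and of −2.01 ± 0.31 at 72 hr (limma, adjusted p = 1.8e-06), the latter at rank 5 from the lowest of 4776 genes. The ratio of reads, reduced to oxidized, was 2.90 (2.02 to 4.24) at 48 hr and 4.44 (3.18 to 6.34) at 72 hr, from 144 and 39 reads and from 215 and 42. The call at 48 hr rested on single libraries: without replicate 3 of the oxidized cells the difference was −0.68 (adjusted p = 0.24), without replicate 1 of the reduced cells it was −0.98 (adjusted p = 0.15), and with 1 PPM added in place of 10 it was −1.33 (adjusted p = 0.054).

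DUR3, at chrVIII:72037-74244 on the minus strand, encodes the plasma membrane urea permease, which also carries polyamines. It had few reads, 15 over all oxidized and 53 over all reduced libraries. The oxidized libraries held 22.1, 18.6 and 5.27 PPM at 48 hr, the reduced ones 33.2, 25.2 and 37.6 PPM. At 72 hr the values were 14.0, 0 and 47.2 PPM in oxidized and 79.5, 56.5 and 73.3 PPM in reduced cells. Oxidized libraries lay below the reduced ones of their own age, though replicate 3 of the oxidized cells at 72 hr exceeded all reduced libraries at 48 hr. The means were 15.3 ± 8.90, 20.4 ± 24.2, 32.0 ± 6.30 and 69.8 ± 11.8 PPM (SD, n = 3) in oxidized cells at 48 hr, oxidized cells at 72 hr, reduced cells at 48 hr and reduced cells at 72 hr. The difference at 48 hr, −0.79 ± 0.53, did not pass the test (limma, adjusted p = 0.55), and the one at 72 hr did, at −1.73 ± 0.53 (limma, adjusted p = 0.026). The average over both ages was −1.26 ± 0.38 (limma, adjusted p = 0.018), and the pooled reads gave a ratio of 2.92 (1.62 to 5.59). Leaving out replicate 2 of the oxidized cells at 72 hr, the library with no read of DUR3, moved the difference at 72 hr to −1.10 (adjusted p = 0.27) and the averaged one to −0.94 (adjusted p = 0.098). The call at 72 hr was also lost without replicate 1 of the oxidized cells (adjusted p = 0.068) and without replicate 1 (0.12), 2 (0.056) or 3 (0.083) of the reduced cells of that age, and the averaged one without replicate 3 of the oxidized cells at 48 hr (0.058) or replicate 1 of the reduced cells at 72 hr (0.052). Counting windows were placed at RefSeq gene ends here, since the study's annotation is not given. Placed so, the window of DUR3 overlaps that of YHL017W by 238 bases on the opposite strand. The use of strand in the counting is not stated, so reads of the 2 cannot be separated with certainty.

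**Figure D1:**
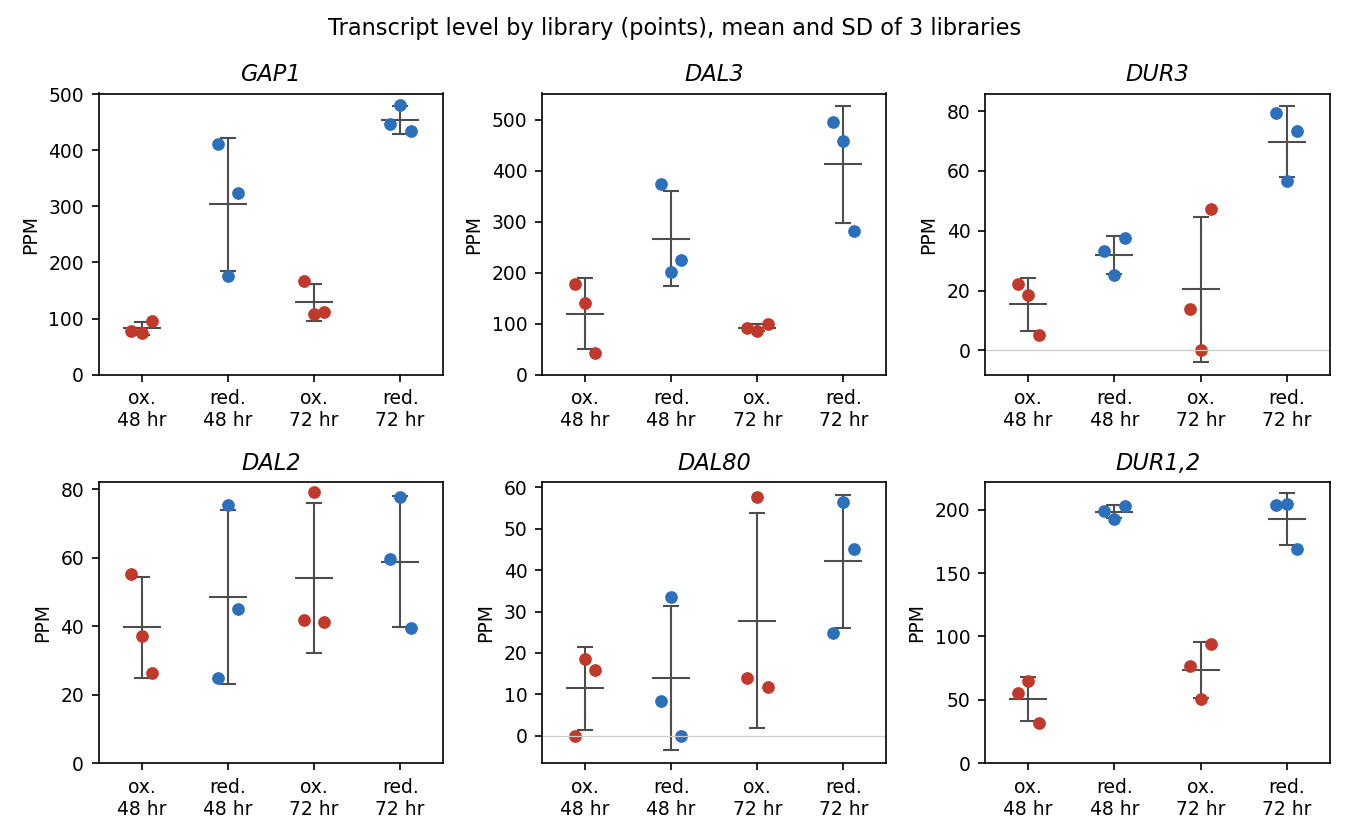
Levels of 6 genes in PPM (vertical axis, starting at or just under 0) by group (horizontal axis, ox. for oxidized and red. for reduced), with points for libraries and lines for the mean and SD of 3 libraries. For GAP1, DAL3, DUR3 and DUR1,2 the oxidized points lie below the reduced points of the same age, while for DAL2 and DAL80 the groups overlap.

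Not every gene of the set moved. DAL2, at chrIX:410807-411838 on the plus strand, encodes allantoicase and shares the gene cluster with DAL3. It held 55.3, 37.3 and 26.4 PPM in oxidized and 24.9, 75.5 and 45.1 PPM in reduced cells at 48 hr. At 72 hr it held 41.9, 79.3 and 41.3 PPM in oxidized and 59.6, 77.8 and 39.4 PPM in reduced cells. The groups overlapped throughout, and the means, 39.7 ± 14.6, 48.5 ± 25.5, 54.2 ± 21.8 and 58.9 ± 19.2 PPM (SD, n = 3; oxidized and reduced at 48 hr, then at 72 hr), stayed within their spread. The differences were −0.18 at 48 hr (95% interval −1.07 to 0.70) and −0.12 at 72 hr (−1.0 to 0.77), and −0.15 ± 0.31 in the average (limma, adjusted p = 0.84). The interval of the average was −0.78 to 0.48, and the averaged values of DAL3 and GAP1, −1.62 and −1.73, lie outside it, although the difference between genes was not tested. DAL2 and DCG1 end on opposite strands with windows, placed at RefSeq gene ends, that overlap by 203 bases, but DCG1 had only 4 reads in all libraries.

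DAL80, at chrXI:506898-507707 on the plus strand, encodes the GATA repressor that is itself under nitrogen control. It held 0, 18.6 and 15.8 PPM in oxidized and 8.30, 33.6 and 0 PPM in reduced cells at 48 hr. The levels at 72 hr were 14.0, 57.7 and 11.8 PPM in oxidized and 24.8, 56.5 and 45.1 PPM in reduced cells. The groups overlapped at both ages, and with 17 reads over the oxidized and 27 over the reduced libraries the reads gave a ratio of 1.31 (0.69 to 2.57). Neither difference, −0.04 at 48 hr (95% interval −1.21 to 1.14) nor −0.62 at 72 hr (−1.80 to 0.56), passed the test. With so few reads, any difference within these intervals remained possible for this gene.

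The 4 members below the filter had 2 to 13 reads in either redox state. DAL7, the malate synthase that lies at chrIX:413015-414679 on the minus strand, gave the clearest order among them. Its oxidized libraries held 0, 0 and 5.27 PPM at 48 hr and 0, 0 and 5.89 PPM at 72 hr, and its reduced ones 8.30, 16.8 and 7.52 PPM and 9.93, 21.2 and 11.3 PPM. All 6 reduced libraries held at least 1 read and exceeded the oxidized ones, of which 2 held a read. Replicate 3 of the reduced cells at 48 hr held only 1 read, as did each of those 2 oxidized libraries. The order of these libraries in PPM therefore came from their depth alone. The pooled reads were 12 to 2, a ratio of 4.97 whose interval ran from 1.11 to 45.7. When the filter on low values was dropped, the averaged log2 difference of DAL7 was −0.92 (limma, adjusted p = 0.024 over 6308 genes), which made it the only one of these 4 to be called in any redox comparison.

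DAL4, the allantoin permease gene at chrIX:408468-410375 on the plus strand, was at 0 in all 3 oxidized libraries at 48 hr and held 20.7, 0 and 30.1 PPM in the reduced ones. Those are 0 reads against 9, and a count of 0 over the 3 oxidized libraries allows up to 7.74 PPM (3 reads over the group). At 72 hr the order did not recur, with 27.9, 7.21 and 0 PPM in oxidized and 4.97, 7.07 and 11.3 PPM in reduced cells. DAL5, at chrX:719666-721297 on the plus strand, encodes the permease for allantoate and ureidosuccinate. It had 4 reads in oxidized and 5 in reduced libraries, with at most 17.7 PPM in any library, and no difference was detectable at this depth (ratio 1.03, interval 0.22 to 5.21). DAL1, the allantoinase gene at chrIX:406260-407642 on the minus strand, was read only at 48 hr, at 0, 0 and 10.5 PPM in oxidized and 8.30, 0 and 15.0 PPM in reduced cells. At 72 hr all 6 libraries were at 0, which allows up to 6.64 PPM in oxidized and 5.77 PPM in reduced cells. Counting all 9 members, DAL3, DAL7, DUR3 and GAP1 had every oxidized library below every reduced one at 48 hr and again at 72 hr, where 10.7% and 15.2% of the genes tested did so, and no member had the opposite order. DAL3, DAL7 and GAP1 kept that order with both ages pooled, where 2.72% of the genes tested did so. These shares cover only the 4776 genes that passed the filter, so DAL7, whose order rested in part on single reads, is not part of them. Among the members tested the order held for DAL3, DUR3 and GAP1 at each age, and for DAL3 and GAP1 with ages pooled.

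**Figure D2:**
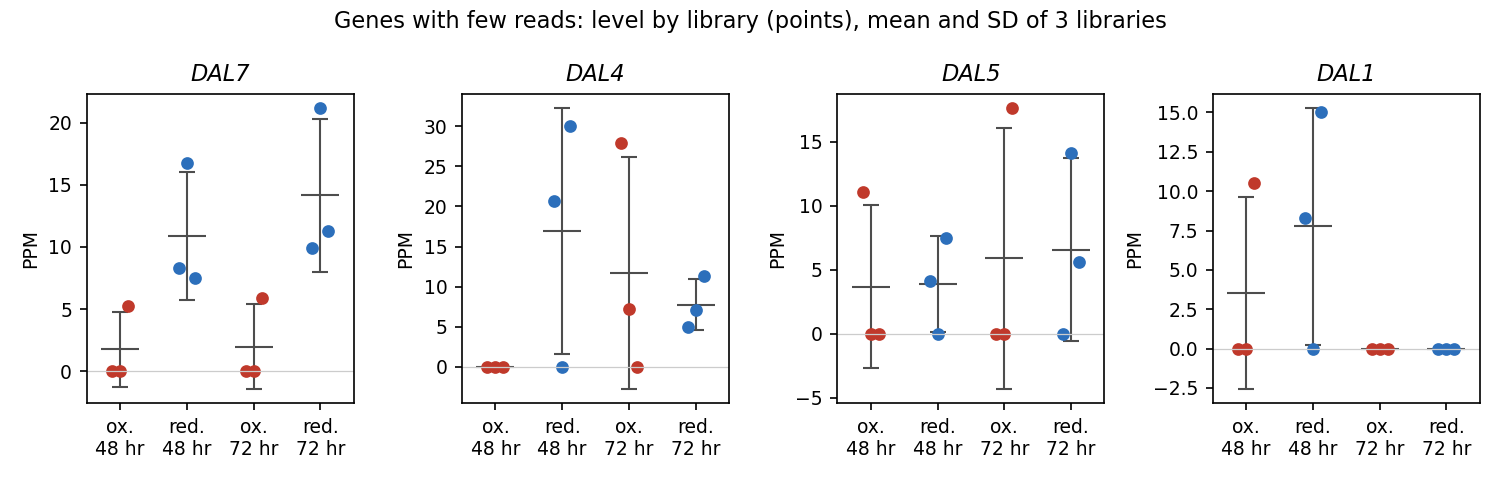
Levels in PPM (vertical axis) of the 4 members with few reads by group (horizontal axis), with points for libraries and lines for the mean and SD of 3 libraries, so that an SD line can fall below 0. The reduced points of DAL7 lie above its oxidized points, DAL4 is at 0 in all oxidized libraries at 48 hr, DAL5 overlaps throughout, and DAL1 is at 0 in all libraries at 72 hr.

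DAL1, DAL4, DAL2, DCG1, DAL7 and DAL3 lie side by side on chromosome IX in that order. Within this cluster DAL3 was lower in oxidized cells, DAL2 did not pass the test, and the others lay below the filter. With the filter dropped, DAL7 was called lower in the average (−0.92, limma, adjusted p = 0.024). DCG1, a gene of unknown function between DAL2 and DAL7 at chrIX:412036-412770, had 0 reads in oxidized and 4 in reduced libraries. Outside the cluster, GAP1 and DAL80 both lie on chromosome XI, and GAP1 was called while DAL80 was not.

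**Figure D3:**
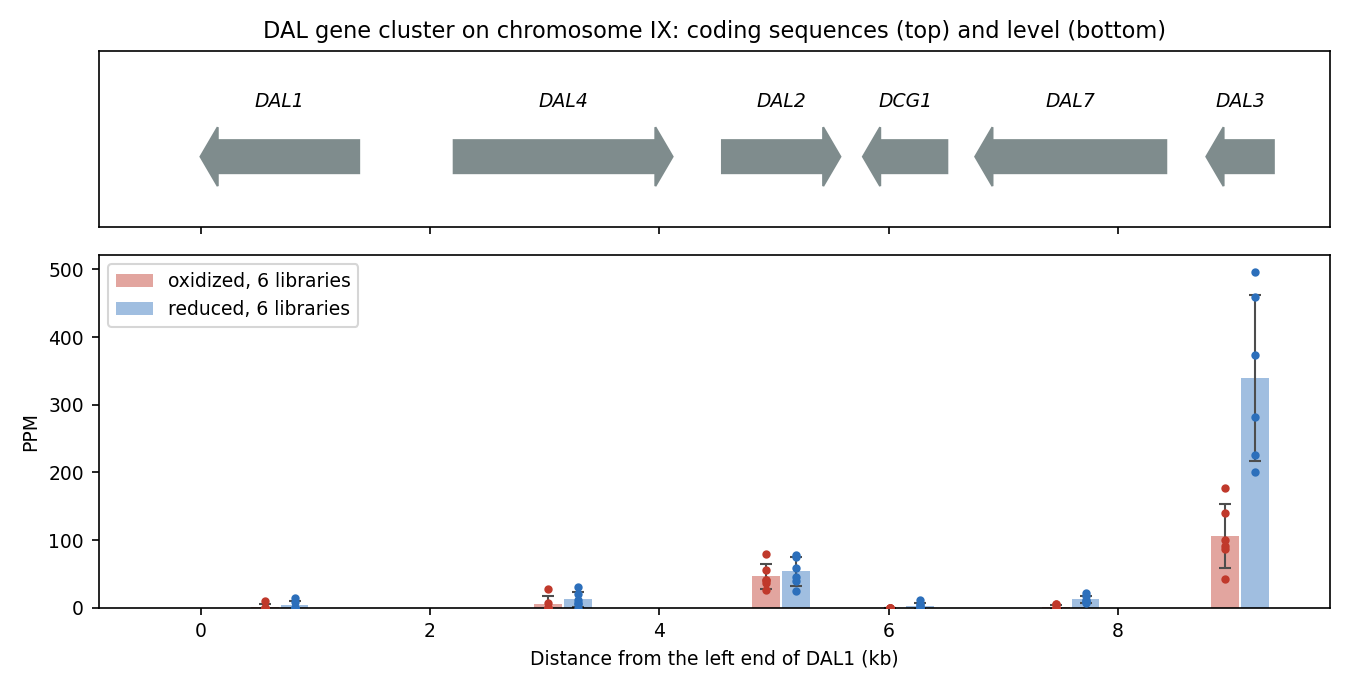
Coding sequences of the DAL cluster drawn to scale (top, arrows point along the coding strand) and levels in PPM below each gene (bottom), plotted against the distance in kb from the left end of DAL1, with bars for the mean and lines for the SD of 6 oxidized and 6 reduced libraries and points for libraries. DAL3 shows the gap between oxidized (42.2 to 177 PPM) and reduced libraries (201 to 497 PPM), and DAL2 does not.

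The transcript for the enzyme that uses the urea was lower in oxidized cells too. DUR1,2, at chrII:636703-642210 on the minus strand, is no member but completes the path, and it held 55.3, 65.3 and 31.6 PPM in oxidized and 199, 193 and 203 PPM in reduced cells at 48 hr. At 72 hr it held 76.7, 50.5 and 94.3 PPM against 204, 205 and 169 PPM. The oxidized and reduced libraries were far apart and the reduced ones close together. The log2 differences were −1.82 ± 0.31 at 48 hr (limma, adjusted p = 5.0e-05) and −1.30 ± 0.31 at 72 hr (limma, adjusted p = 0.0025). Its window, placed at the RefSeq gene end, overlaps that of FTH1 by 241 bases on the opposite strand. FTH1 did not pass the test, with log2 differences of −0.68 at 48 hr (limma, adjusted p = 0.16) and 0.20 at 72 hr (limma, adjusted p = 0.74).

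Both GATA activators had lower transcript levels in oxidized cells, and the other regulators did not pass the test. GAT1 held 110.6, 55.9 and 52.7 PPM in oxidized and 178, 134 and 158 PPM in reduced cells at 48 hr, and 69.8, 43.3 and 88.4 PPM against 194, 198 and 124 PPM at 72 hr, with no overlap. Its averaged log2 difference was −1.16 ± 0.23 (limma, adjusted p = 1.9e-04), made up of −1.06 at 48 hr (adjusted p = 0.052) and −1.25 at 72 hr (adjusted p = 0.0062). GLN3 ranged from 9.32 to 63.2 PPM over the 6 oxidized and from 54.6 to 165 PPM over the 6 reduced libraries, so that the groups overlapped slightly. Its averaged difference was −1.11 ± 0.30 (limma, adjusted p = 0.0082), with −1.47 at 48 hr (adjusted p = 0.038) and −0.76 at 72 hr (adjusted p = 0.33). The repressor gene GZF3 (−0.70 ± 0.38, adjusted p = 0.26) and URE2 (−0.15 ± 0.28, adjusted p = 0.82) were not called by limma in the average. The same was true of DAL81 (0.50 ± 0.38, adjusted p = 0.48) and DAL82 (0.01 ± 0.31, adjusted p = 0.99), which encode the activators that respond to the allantoin pathway's inducer. The GLN3 call at 48 hr was lost with no filter (adjusted p = 0.077), with 1 PPM added (0.076) and when only the 6 libraries compared were fitted (0.060). It was also lost without replicate 2 of the oxidized cells (−0.90, adjusted p = 0.31), without replicate 1 of the reduced cells (−1.53, adjusted p = 0.10) and without replicate 3 of the reduced cells (−1.19, adjusted p = 0.26). The GAT1 call at 72 hr was lost without replicate 2 of the oxidized cells (−1.01, adjusted p = 0.069) and without replicate 1 (−1.16, adjusted p = 0.052) or 2 (−1.14, adjusted p = 0.055) of the reduced cells. At 48 hr GAT1 was called once replicate 1 of the oxidized cells (adjusted p = 0.013) or replicate 2 of the oxidized cells at 72 hr (adjusted p = 0.044) was left out, with the filter at 50 PPM (adjusted p = 0.039) and with 50 PPM added (0.043).

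**Figure D4:**
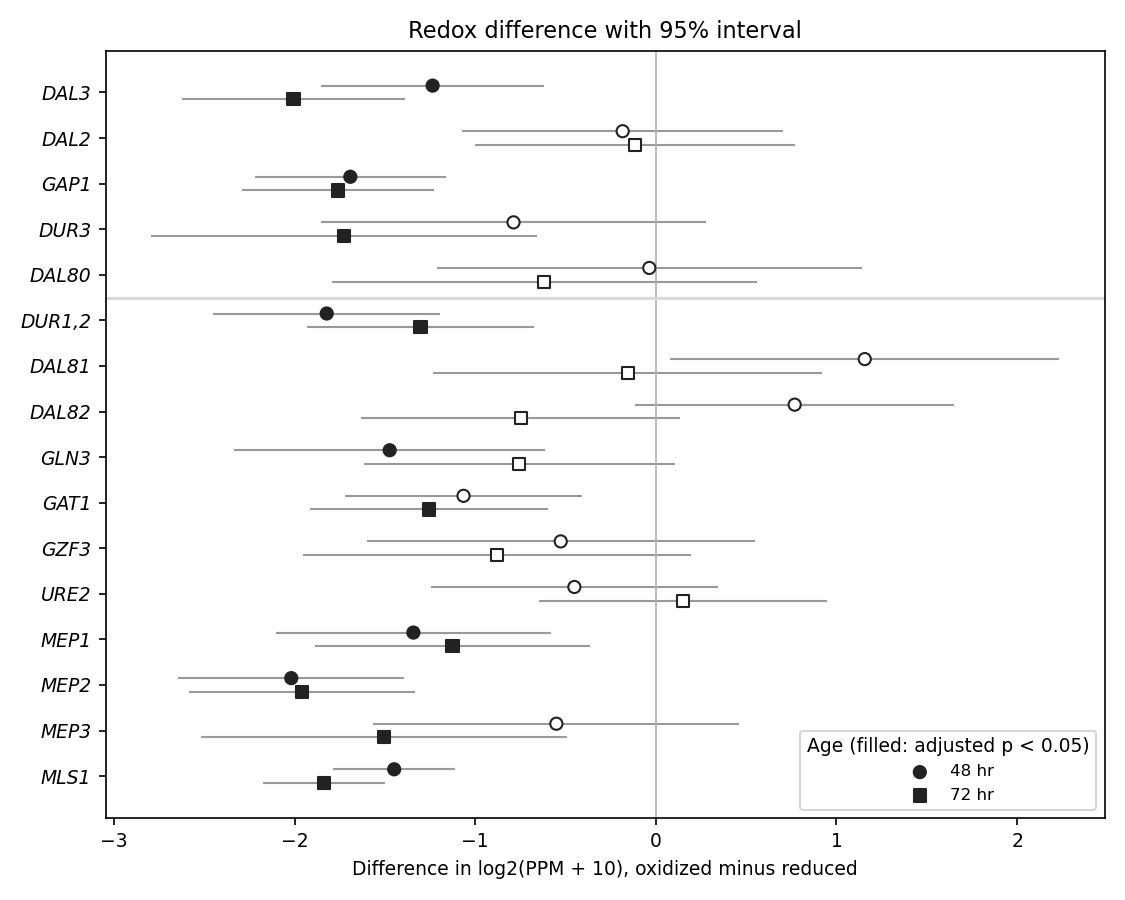
Differences in log2(PPM + 10), oxidized minus reduced (horizontal axis), at 48 hr (circles) and 72 hr (squares) with 95% intervals, filled where the limma adjusted p is below 0.05, for the 5 members tested (above the grey line) and 11 other genes of the lists (below it). GAP1, DAL3 and DUR1,2 are filled at both ages, DUR3 at 72 hr, and DAL2 and DAL80 at neither.

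Beyond the members, several genes for nitrogen uptake were lower in oxidized cells. In the average, 6.97% of all genes tested were called lower and 11.9% in either direction. The 3 ammonium permease genes were all called lower in the averaged redox difference, with a median of −1.23 against −0.08 over all genes tested, led by MEP2, the high-affinity permease, at −1.99 ± 0.22 (limma, adjusted p = 2.9e-10), and followed by MEP1 at −1.23 (adjusted p = 6.2e-04) and MEP3 at −1.03 (adjusted p = 0.049). Of 8 tested genes for the uptake of other nitrogen compounds, 4 were called lower and none higher, with a median of −0.68. These were PTR2, the di- and tripeptide permease, from 66.6 ± 35.7 PPM (SD, n = 6) in reduced to 24.6 ± 23.6 in oxidized libraries, PUT4, the proline permease, from 171 ± 42.2 to 73.1 ± 17.3, CAN1, the arginine permease, from 303 ± 73.9 to 156 ± 42.4, and DIP5, the permease for aspartate and glutamate, from 128 ± 30.2 to 68.4 ± 26.4. In the family of amino acid permeases related to GAP1, which shares PUT4, CAN1, DIP5 and AGP1 with that list, 5 of 16 were lower and 1 was higher, and the median, −0.13, lay close to that of all genes. The lower ones were PUT4, CAN1, DIP5, ALP1 (−0.97, adjusted p = 0.010) and MMP1 (−0.89, adjusted p = 0.043), and the one that was higher in oxidized cells was HIP1, the histidine permease, with 123 ± 22.0 PPM (SD, n = 6) in oxidized and 51.8 ± 12.8 PPM in reduced libraries (1.12 ± 0.25, limma, adjusted p = 9.4e-04). MEP3 passed the filter only through its reduced libraries, with a mean of 15.8 PPM over the oxidized and 42.2 PPM over the reduced ones. The call of MEP3 was lost without any of 10 of the 12 libraries (adjusted p = 0.055 to 0.15) and that of MMP1 without any of 8 (0.054 to 0.17). The call of PTR2 was lost without replicate 2 of the oxidized cells at 48 hr (−0.95, adjusted p = 0.065), that of ALP1 without replicate 2 of the reduced cells at 72 hr (−0.81, adjusted p = 0.074), and that of DIP5 without replicate 2 of the oxidized cells at 72 hr (−0.71, adjusted p = 0.058) or of the reduced cells at 48 hr (−0.75, adjusted p = 0.055).

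Among genes for nitrogen metabolism, relatives of DAL4 and genes of glyoxylate use there were calls in both directions in the average, where 11.9% of all genes tested were called in either direction. Of 5 genes of ammonium and glutamate assimilation 1 was lower, GDH1, encoding the NADP-dependent glutamate dehydrogenase (−0.91 ± 0.17, limma, adjusted p = 6.6e-05). Of 10 tested genes for the use of proline, GABA, arginine and asparagine, CAR1, the arginase gene, was lower (−0.92, adjusted p = 0.0026) and UGA2, for succinate semialdehyde dehydrogenase, was higher (0.45, adjusted p = 0.023), with a median of −0.30. The 10 tested genes that control the sorting and turnover of the Gap1 protein had a median of −0.13, and limma called 0 of them in the average, 1 having an unadjusted p under 0.05. Of 6 tested relatives of DAL4, THI7, a thiamine permease gene, was higher (0.51, adjusted p = 0.023). Of the 4 genes that make or use glyoxylate beside DAL7, MLS1 and ICL1, the malate synthase and isocitrate lyase of the glyoxylate cycle, were lower (−1.64, adjusted p = 2.5e-16, and −1.80, adjusted p = 2.0e-18), and GOR1, the glyoxylate reductase gene, was higher (0.76, adjusted p = 0.018). The calls of THI7 (adjusted p = 0.061 to 0.097) and UGA2 (0.051 to 0.079) were each lost when any of 5 of the 12 libraries was left out, and that of GOR1 without replicate 3 of the reduced cells at 48 hr (0.67, adjusted p = 0.061) or replicate 1 at 72 hr (0.66, adjusted p = 0.070).

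**Figure D5:**
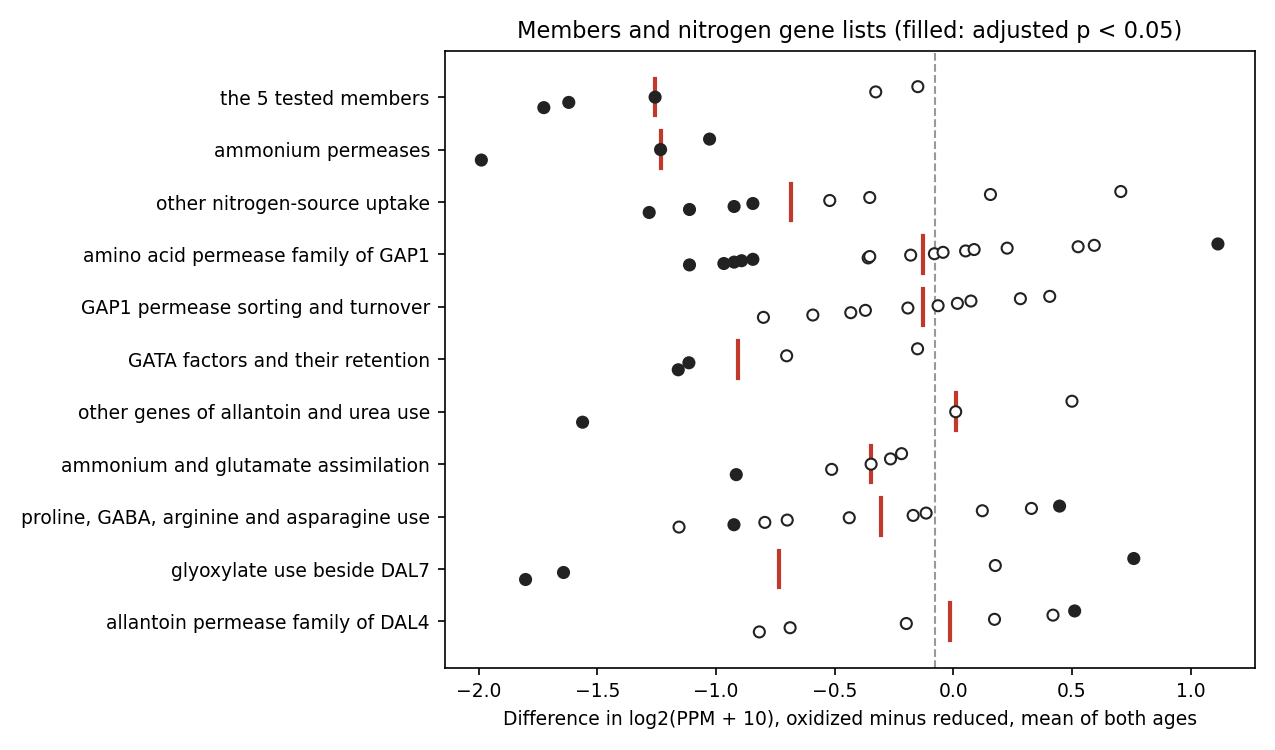
Differences in log2(PPM + 10), oxidized minus reduced and averaged over both ages (horizontal axis), for the 5 tested members and 10 lists of related genes (rows), filled where the limma adjusted p is below 0.05, with red bars for list medians and a dashed line at the median of all 4776 genes, −0.08. The lists of glyoxylate use and of relatives of DAL4 are not lists of nitrogen genes. The ammonium permeases lie to the left, and the genes for the sorting of Gap1 lie around the dashed line.

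The age of the culture was compared next. No member was called by limma in reduced cells, in oxidized cells or in their average, where 2.32%, 0.440% and 2.30% of all genes tested were called, while 3, 1 and 2 of the 5 tested had an unadjusted p under 0.05. GAP1 came nearest, with a mean difference, 72 minus 48 hr, of 0.64 ± 0.26 in reduced (limma, adjusted p = 0.27) and 0.57 ± 0.26 in oxidized cells (adjusted p = 0.45), and of 0.61 ± 0.19 in the average (adjusted p = 0.071). Without replicate 1 of the reduced cells at 48 hr that average was 0.73 and was called (adjusted p = 0.032), and with 50 PPM added it was 0.50 and was called at the edge of the threshold (adjusted p = 0.0498). DAL80 had the largest age value among the members tested, 1.04 ± 0.42 in the average (limma, adjusted p = 0.24). DAL3 had values of 0.62 ± 0.31 in reduced cells (adjusted p = 0.41) and −0.15 ± 0.31 in oxidized cells (adjusted p = 0.92).

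Whether the redox difference itself changed with age was tested by the interaction term, in which 0.775% of all genes tested were called. No member was called by limma, and 0 of the 5 had an unadjusted p under 0.05. DAL3, whose redox difference was −1.24 at 48 hr and −2.01 at 72 hr, had an interaction of −0.77 ± 0.44 (adjusted p = 0.63), DUR3 one of −0.94 ± 0.75 (adjusted p = 0.75) and GAP1 one of −0.07 ± 0.37 (adjusted p = 0.98). The call of DUR3 at 72 hr and not at 48 hr is therefore not shown to be a difference between the ages. Among 14 tested genes, the 5 members and the related genes fixed by name, which include MEP2 and MLS1, the largest interaction was that of DAL82, −1.52 ± 0.62 (limma, adjusted p = 0.39).

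The mean profile of the 5 tested members over the 12 libraries, each centred on its own mean of log2(PPM + 10), was set against that of every other gene tested. The 10 most alike by Pearson r were RPL41B (0.97), SHH3 (0.97), MLS1 (0.96), ICL1 (0.95), SFC1 (0.95), MDH2 (0.95), ICL2 (0.95), YHR219W (0.95), SOD1 (0.94) and GPD1 (0.94). MLS1 and ICL1 act in the glyoxylate cycle and MDH2 is the cytosolic malate dehydrogenase, while SFC1 carries succinate and fumarate across the inner mitochondrial membrane and RPL41B encodes a ribosomal protein. The values describe 12 libraries that fall into oxidized and reduced groups, which all these genes share, and carry no test. The 5 members were not alike among themselves. GAP1, DAL3 and DUR3 had r of 0.71 to 0.81 with each other, but DAL2 and DAL80 had r of only −0.02 to 0.26 with them. Likeness to the mean profile is thus not likeness to each member.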

How the data were processed

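Reads from the 3′ ends of transcripts, with molecular identifiers, were mapped by the study to sacCer3 with Bowtie2, cleared of duplicates, counted in a window around the termination site (350 bp before it and 200 bp after it) and scaled to the library's total. PPM is thus the unit in which the authors deposited their read counts. The use of strand, the annotation and the aligner version are not given in the sources used here, and bcl2fastq 2.17 is named in the submitters' processing notes.

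The deposited table separates 6092 genes by tabs and 553 by commas, which were split. YCR013C and PYC1, each broken over 2 lines, were left out, 6645 genes were kept, and 5926 matched the annotation. Overlaps of counting windows were looked for among the matched genes only, with windows placed at RefSeq gene ends. The comma blocks kept the unit from being checked as RPM, so no count test was run. Depth was described by whole reads, computed back from what a single read adds to the PPM of each library (100% whole within 0.1 reads), with exact 95% binomial intervals for ratios and a limit of 3 reads for counts of 0. Both cover counting error only.

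In R 4.3.3, limma 3.58.1 (trend in the mean, 45.1 prior degrees of freedom) was fitted to log2(PPM + 10) with 4 group means over all 12 libraries, for genes whose mean reached 20 PPM, with Benjamini-Hochberg adjustment over the 4776 genes tested in each comparison and a threshold of 0.05. The fit was tested on simulated data. Figures were drawn with matplotlib 3.10.9, and tables were made with scipy 1.17.1, numpy 2.4.6 and pandas 2.3.3 under Python 3.11.15. GATAA was searched on both strands, and the 2 forms cannot overlap. Libraries of a group differed by more than sampling noise (chi-square per degree of freedom 1.42 to 2.80).

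Named are the 9 members, 10 related genes fixed by name, list genes past the threshold in the averaged redox difference, and the 10 genes most like the members' mean profile. The members, lists and rules were chosen with earlier results of these data known. Alternatives were other amounts added (1 and 50 PPM), no filter or one at 50 PPM, median-of-ratios scaling, a replicate block, leaving out each library, and only the 6 libraries compared.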

Additional observations from a re-analysis of the deposited data

How the results depend on the processing

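Of the counts of members past the threshold, the one at 48 hr fell from 2 to 1 with 1 PPM added and ranged from 1 to 2 when single libraries were left out, at 1 without replicate 3 of the oxidized or replicate 1 of the reduced cells at 48 hr. The averaged age count rose from 0 to 1 with 50 PPM added and ranged from 0 to 1 when libraries were left out. At 72 hr and in the average the count ranged from 2 to 3 with libraries left out. DUR3 also lost its call at 72 hr with 1 PPM added (adjusted p = 0.080) and with no filter (0.053), and in the average with 1 PPM added (0.072). MEP3 and MMP1 also lost the averaged call with 1 PPM added (0.089 and 0.071), with no filter (0.069 and 0.078) and with median-of-ratios scaling (0.070 and 0.066), and PTR2 with 1 PPM added (0.061). The causes were not tested. GAP1 kept its calls in the 3 redox comparisons under every alternative run (18 in the average, 19 at each age), as did DAL3 its calls at 72 hr and in the average. No result that was called changed sign. The replicate block left the members' counts at 2, 3 and 3 for redox state and 0 for age and interaction, and ended the averaged call of MEP3 (adjusted p = 0.055). Deviations of libraries with the same number had r of −0.027 to 0.020, and those with different numbers −0.011 to 0.023. In libraries this shallow such values cannot show whether the numbers pair samples, and the labels do not say. Median-of-ratios scaling moved the median of all genes at 72 hr from −0.11 to −0.04. With few reads, small differences of DAL80, DAL1, DAL4 and DAL5 could not be detected.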
